A study of Mus musculus with 18 samples.

Results

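Genes of the photoreceptors, the light-sensing cells of the outer retina, were followed in whole mouse retinas after crush of the optic nerve, an injury to the axons of retinal ganglion cells on the opposite side of the tissue. The 39 genes were chosen by name as components of rod and cone phototransduction, of the outer segment and of photoreceptor transcriptional control. The rule uses no measured value, though earlier results of these data were known when the genes were listed. They were divided into 12 rod genes, 10 cone genes and 17 genes used by both cell types, out of 20144 gene symbols on the array. Their 56 probes were read among 39429 probes, and all 56 passed the filter on dim probes.

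All mice carried 2 floxed alleles of Map3k12, the gene of dual leucine zipper kinase (DLK), written DLKlox/lox in the labels, and all received tamoxifen when 10 to 12 weeks old. In Cre-positive mice a Cre-ERT transgene, active once tamoxifen is given, was driven by the broadly active CAG promoter, so deletion was not limited to 1 retinal cell type. Cre-negative littermates lacked the transgene and kept the floxed alleles. Retinas were labelled crushed, 3 days after the injury, or uncrushed, from uninjured eyes. There were 5 Cre-positive crushed, 5 Cre-positive uncrushed, 3 Cre-negative crushed and 4 Cre-negative uncrushed arrays. The labels do not say whether samples came from separate animals, so p-values describe the spread between these samples, which may in part be technical. The comparisons ask whether photoreceptor transcripts differ after axon injury, and whether they differ when DLK has been deleted. On every array Cy5 marked the RNA of the retina and Cy3 a commercial universal mouse reference RNA. A level is therefore log2 of retina over reference for 1 probe, and a change is a difference between such levels.

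In a rod, light activates rhodopsin, which activates the G protein transducin, which in turn releases the catalytic subunits of a phosphodiesterase from their inhibitory subunit. The fall in cyclic GMP closes cation channels of the outer segment, and arrestin, an opsin kinase and a GTPase-accelerating protein end the response. Cones use a parallel set of cone opsins, cone transducin, cone phosphodiesterase and cone channel subunits. The transcription factors Crx, Nrl and Nr2e3 set the program, with Crx acting in both cell types and Nrl and Nr2e3 in rods.

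Promoters of the set were examined for the core of the Crx binding sequence, since Crx is itself a member. In RefSeq's table for build GRCm38.p6, 29 of the 39 genes were matched, with 32 promoter windows. Not matched were Gnat1, Pde6a, Pde6g, Pde6c, Cngb3, Gngt2, Gnb3, Rcvrn, Guca1b and Rp1. The letters TAATCC, read on either strand over 250 bases before the transcript start, occurred in 12 of 32 windows (37.5%), against 6.25% of all 32851 windows in the table. By list, 4 of 9 rod windows, 1 of 7 cone windows and 7 of 16 windows of genes used by both held the sequence. The letters TGCTGA, the core of the Nrl binding sequence, occurred in 7 of 32 windows (21.9%), against 16.1% of all windows. The windows of 4 genes with a Crx core are shown from 120 bases before the start to the last base before it, 1 or 2 from each list, with TAATCC or its reverse complement GGATTA in capitals.
Sag, chr1:87803560-87803679, plus strand: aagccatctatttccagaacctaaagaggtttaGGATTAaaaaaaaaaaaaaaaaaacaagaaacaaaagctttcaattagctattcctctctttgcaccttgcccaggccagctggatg
Gngt1, chr6:3993888-3994007, plus strand: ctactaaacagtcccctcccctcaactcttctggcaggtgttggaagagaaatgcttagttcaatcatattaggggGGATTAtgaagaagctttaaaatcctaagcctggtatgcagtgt
Gnat2, chr3:108092946-108093065, plus strand: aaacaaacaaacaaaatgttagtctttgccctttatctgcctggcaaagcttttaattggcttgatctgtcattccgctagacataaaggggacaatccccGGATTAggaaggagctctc
Crx, chr7:15879956-15880075, minus strand: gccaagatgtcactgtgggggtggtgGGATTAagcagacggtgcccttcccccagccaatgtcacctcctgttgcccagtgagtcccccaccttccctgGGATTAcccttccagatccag
In Sag, the gene of rod arrestin, the match lay at positions -87 to -82, counted back from the start. In Gngt1, the gene of the rod transducin gamma subunit, it lay at -44 to -39. The cone transducin gene Gnat2 had its match at -19 to -14, and Crx had one at -94 to -89 and one at -21 to -16. These matches describe the letters of the windows and do not show binding.

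The arrays were evenly measured. Across the 17 arrays with agreed labels and 1 further array, the median spot intensity was 240 to 297 in Cy5 and 130 to 148 in Cy3, the median local background was 72.5 to 84 in Cy5 and 24 to 37 in Cy3, and no spot was saturated. Map3k12 had levels of 1.84 to 2.34 in Cre-positive crushed retinas against 2.32 to 2.61 in Cre-negative crushed retinas, and of 1.77 to 2.17 in Cre-positive uncrushed against 2.21 to 2.58 in Cre-negative uncrushed retinas. Its Cre-positive minus Cre-negative difference was -0.47 (SE 0.12, limma adjusted p = 0.0631) in crushed and -0.43 (SE 0.11, limma adjusted p = 0.894) in uncrushed retinas, called in neither. Whether its probe lies in the deleted stretch is not given in the sources used here. The injury was visible in other cells of the same arrays: the ganglion cell factor Pou4f2 changed by -1.77 (SE 0.15) after crush in Cre-negative retinas, with limma adjusted p = 4.27e-07. In the same contrast limma called 8 of 11 tested ganglion cell markers lower, 7 of 12 reactive gliosis genes higher and 4 of 10 microglial markers higher at an adjusted p under 0.05, as it called 1.97% of all probes in either direction. In Cre-positive retinas it called 2 of 11 ganglion cell markers lower, 8 of 12 gliosis genes higher and 9 of 10 microglial markers higher, as it called 0.735% of all probes. By sign alone 11 of 11 ganglion cell markers were below 0 in Cre-positive and 10 of 11 in Cre-negative retinas. All 17 arrays showed the 37 further photoreceptor genes read as a check of the tissue well above background in Cy5.

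A pair of arrays stood apart in markers of other eye tissues. Cre-positive uncrushed replicate 4 had a mean deviation of 2.52 (log2, from each gene's mean over the 17 arrays) over 7 cornea, iris and ciliary body markers. These markers ranged from -0.30 to 0.12 in Cre-positive crushed, from -0.32 to 2.52 in Cre-positive uncrushed, from -0.20 to -0.0040 in Cre-negative crushed and from -0.30 to -0.18 in Cre-negative uncrushed retinas. Cre-positive crushed replicate 5 had a mean deviation of 1.14 over 9 lens markers, which ranged from -0.18 to 1.14, from -0.17 to 0.0024, from -0.18 to 0.09 and from -0.26 to 0.30 in the 4 groups in the same order. Of the listed markers, 1 of 12 for lens and 1 of 9 for cornea were not well above background in Cy5 on any array. On the cornea-rich array the mean deviation of the rod genes was 0.14 and that of the genes used by both was 0.12. On the lens-rich array these values were -0.10 and -0.10. Because both arrays are Cre-positive and lie in opposite crush groups, the list medians and the Cre-positive crush responses of the genes shown array by array are given with and without them.

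Markers of the pigment epithelium, the layer that adjoins the photoreceptors, spread widely between arrays. The mean deviation over 12 of them ranged from -0.48 to 0.77 in Cre-positive crushed, from -0.41 to 0.75 in Cre-positive uncrushed, from -0.59 to -0.27 in Cre-negative crushed and from -0.42 to 0.04 in Cre-negative uncrushed retinas. All 12 were well above background in Cy5 on at least 1 array, and 9 on all 17. Limma called 0 of 12 in any of the 5 comparisons. The median change was 0.65 between Cre-positive and Cre-negative crushed retinas, with 11 of 12 above 0 and 3 at an unadjusted p under 0.05 (13.8% of all probes), while the other 4 comparisons had 0 at that mark. It was 0.21 between uncrushed retinas of the 2 genotypes, with 11 of 12 above 0. After crush it was 0.10 in Cre-positive retinas, with 10 of 12 above 0, and -0.28 in Cre-negative retinas, with 10 of 12 below 0. The part of pigment epithelium RNA in the photoreceptor values was not tested.

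Every one of the 39 genes was higher in retina than in the reference RNA. In each of the 4 groups all 39 genes were at least 2-fold over the reference, as were 20.4% of all tested probes in Cre-positive crushed, 20% in Cre-positive uncrushed, 19.6% in Cre-negative crushed and 20.1% in Cre-negative uncrushed retinas. Of the 56 probes 55 passed this mark, the exception being 1 of 3 Cngb1 probes. At least 16-fold over the reference were 26 genes in each group, made up of 10 rod genes, 4 cone genes and 12 genes used by both. The background at that mark was 2% of probes in Cre-positive crushed, 2.01% in Cre-positive uncrushed, 1.93% in Cre-negative crushed and 2% in Cre-negative uncrushed retinas. The median level of the rod list was 6.27 in Cre-positive crushed, 6.32 in Cre-positive uncrushed, 6.35 in Cre-negative crushed and 6.24 in Cre-negative uncrushed retinas. For the cone list the medians were 3.64, 3.58, 3.69 and 3.57 in the same order, and for the genes used by both 4.80, 4.96, 5.0 and 4.91. With the scanner software's processed signals the cone median in Cre-negative uncrushed retinas was 5.01, against 6.35 for rod genes and 4.85 for genes used by both, so the distance between the lists depends on the background correction. The median over all tested probes lay between 0.06 and 0.07 in every group. A ratio depends on how much of the transcript the reference pool holds and on the probe, so its order is an order of enrichment over the pool and not of abundance. The dye orientation was the same on all arrays, so a dye bias of a probe is part of its level.

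**Figure D1:**
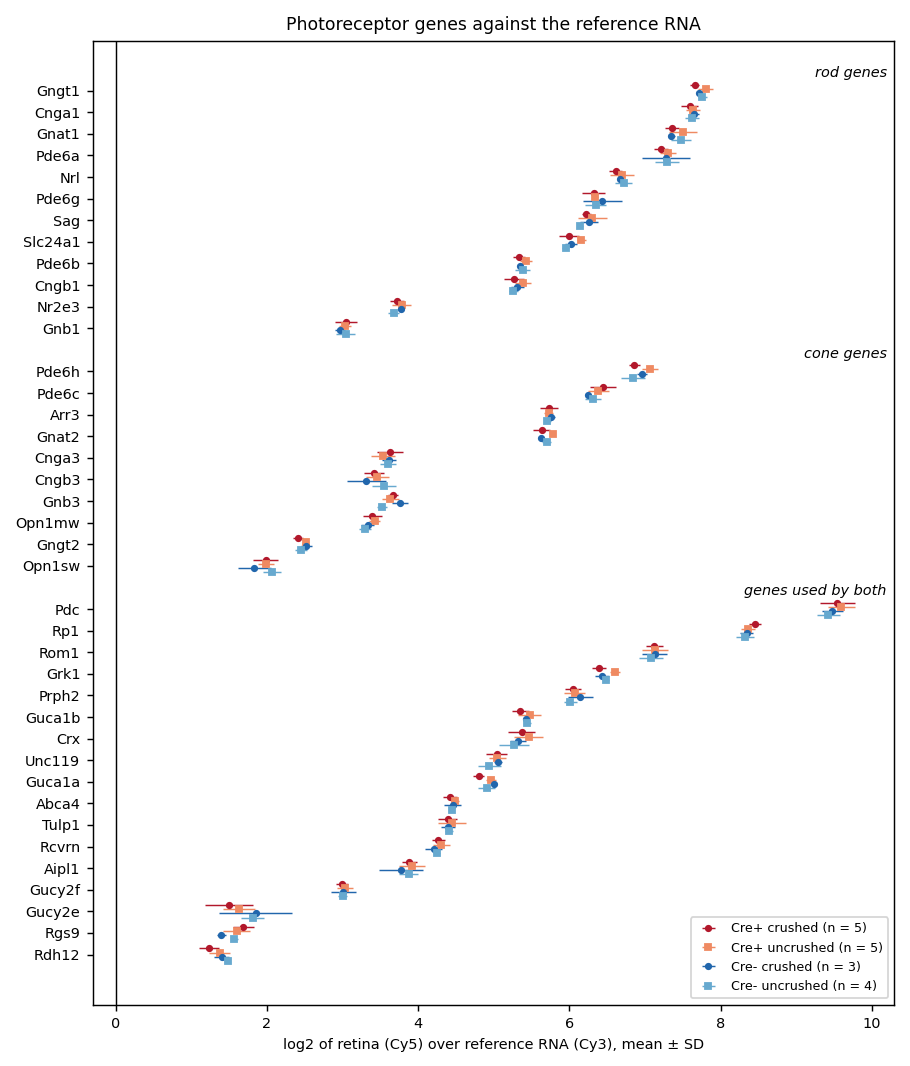
Level of each of the 39 genes against the reference RNA, as log2 of Cy5 over Cy3 (x axis), with the mean and SD of each group; genes (y axis) are ordered within the rod list, the cone list and the genes used by both. All points lie to the right of 1, and within a gene the 4 groups nearly coincide while genes span from Rdh12 to Pdc.

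The rod genes ran by brightest probe from Gnb1 at the lowest to Gngt1 at the highest ratio over the reference. In Cre-negative uncrushed retinas the transducin subunit genes Gnat1 and Gngt1 had levels of 7.48 ± 0.13 and 7.76 ± 0.06 (SD, n = 4), which correspond to 179-fold and 216-fold. The third subunit gene, Gnb1, is expressed in many tissues and had the lowest level of the list by brightest probe, 3.04 ± 0.13. Its other probe was at 4.25. The phosphodiesterase genes Pde6a and Pde6b (catalytic subunits) and Pde6g (inhibitory subunit) had 7.29 ± 0.16, 5.38 ± 0.10 and 6.35 ± 0.14. Channel subunit genes Cnga1 and Cngb1 had 7.62 ± 0.09 and 5.26 ± 0.06, and the 3 Cngb1 probes spread from 0.73 to 6.72. The cation exchanger gene Slc24a1 had 5.95 ± 0.05, the rod arrestin gene Sag 6.14 ± 0.04, and the transcription factor genes Nrl and Nr2e3 6.72 ± 0.11 and 3.68 ± 0.07.

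The cone genes covered a wide range. In Cre-negative uncrushed retinas the highest were the cone phosphodiesterase genes Pde6h (inhibitory subunit, 6.84 ± 0.16) and Pde6c (catalytic subunit, 6.31 ± 0.10; its other probe was at 3.39), followed by the cone arrestin gene Arr3 at 5.71 ± 0.05 and the cone transducin gene Gnat2 at 5.70 ± 0.06. The channel subunit gene Cnga3 had 3.60 ± 0.11. For its partner Cngb3 the Cy3 signal was not well above background on any array, so the level is a bound of at least 10.7-fold in Cre-positive crushed, 11-fold in Cre-positive uncrushed, 9.95-fold in Cre-negative crushed and 11.7-fold in Cre-negative uncrushed retinas. Such a bound sets the mean retinal signal against the higher of the reference signal and the lowest signal that counts as above background. For Cngb3 the reference signal was the higher in every group, so these bounds equal the measured ratios. The cone G protein subunit genes Gnb3 and Gngt2 had 3.52 ± 0.07 and 2.45 ± 0.08, of which Gnb3 is also expressed in ON bipolar cells. The opsin genes Opn1mw (medium wavelength) and Opn1sw (short wavelength) had 3.30 ± 0.08 and 2.07 ± 0.12. The other Opn1mw probe was at 3.83. The Cy3 signal of Opn1sw was well above background on 3 of 4 Cre-negative uncrushed and 2 of 3 Cre-negative crushed arrays. In Cre-positive mice it was so on 3 of 5 crushed and 2 of 5 uncrushed arrays.

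Genes used by both cell types included the highest and the lowest level of all by brightest probe. Pdc, which encodes the transducin-binding protein phosducin, had 9.43 ± 0.16 in Cre-negative uncrushed retinas, 688-fold over the reference, and Rdh12, a retinol dehydrogenase gene, had 1.48 ± 0.03, or 2.79-fold. The structural genes Rp1 (axoneme), Rom1 and Prph2 (disc rim) had 8.32 ± 0.12, 7.08 ± 0.16 and 6.01 ± 0.08, with 7.38 for the other Prph2 probe. The opsin kinase gene Grk1 had 6.48 ± 0.04, with 3.90 for its other probe, and Rcvrn, whose product recoverin inhibits that kinase, had 4.24 ± 0.05. The cyclase activator genes Guca1a and Guca1b had 4.91 ± 0.11 and 5.45 ± 0.04. Of the retinal guanylate cyclase genes they act on, Gucy2e had 1.81 ± 0.15, and Gucy2f, with Cy3 not well above background on any array, was at least 7.96-fold, 8.19-fold, 7.85-fold and 8.00-fold over the reference in Cre-positive crushed, Cre-positive uncrushed, Cre-negative crushed and Cre-negative uncrushed retinas. For Gucy2f these bounds equal the measured ratios except in Cre-negative crushed retinas. Rgs9, whose product speeds the shut-off of transducin, had 1.56 ± 0.05. The master factor gene Crx had 5.27 ± 0.20, the retinoid transporter gene Abca4 4.44 ± 0.02, and the trafficking and chaperone genes Unc119, Tulp1 and Aipl1 4.94 ± 0.15, 4.41 ± 0.05 and 3.87 ± 0.12.

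Rod and cone genes were measured with little spread and showed no called change in any comparison. The SD between arrays of a group, pooled over groups, had a median of 0.114 over the 39 genes and of 0.111 over all tested probes, and ran from 0.061 for Gngt2 to 0.295 for Gucy2e. After crush in Cre-positive retinas 0 of 56 probes passed limma's test at a Benjamini-Hochberg adjusted p under 0.05, while 0.735% of all 30484 tested probes did, and 7 genes had an unadjusted p under 0.05 (9.37% of all probes). After crush in Cre-negative retinas 0 of 56 passed, against 1.97% of all probes, and 2 genes had an unadjusted p under 0.05 (13.2% of all probes). The test of the difference between the 2 crush responses called 0 of 56, against 0.358% of all probes, with 5 genes at an unadjusted p under 0.05 (8.33% of all probes). Between Cre-positive and Cre-negative uncrushed retinas 0 of 56 passed, against 0.00984% of all probes, and 2 genes had an unadjusted p under 0.05 (5.42% of all probes). Between Cre-positive and Cre-negative crushed retinas 0 of 56 passed, against 1.12% of all probes, and 3 genes had an unadjusted p under 0.05 (13.8% of all probes).

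The arrays were precise enough to bound these differences. In all 5 comparisons the 95% interval of the change lay within 2-fold for 39 of 39 genes. Within 1.5-fold lay 39 genes after crush in Cre-positive retinas, 39 after crush in Cre-negative retinas, 38 for the difference between these responses, 39 between Cre-positive and Cre-negative uncrushed retinas and 38 between Cre-positive and Cre-negative crushed retinas. The exception was Gucy2e both times. Intervals are those of single genes and are not adjusted for their number. In whole tissue, fewer photoreceptors and less RNA per photoreceptor cannot be told apart.

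**Figure D2:**
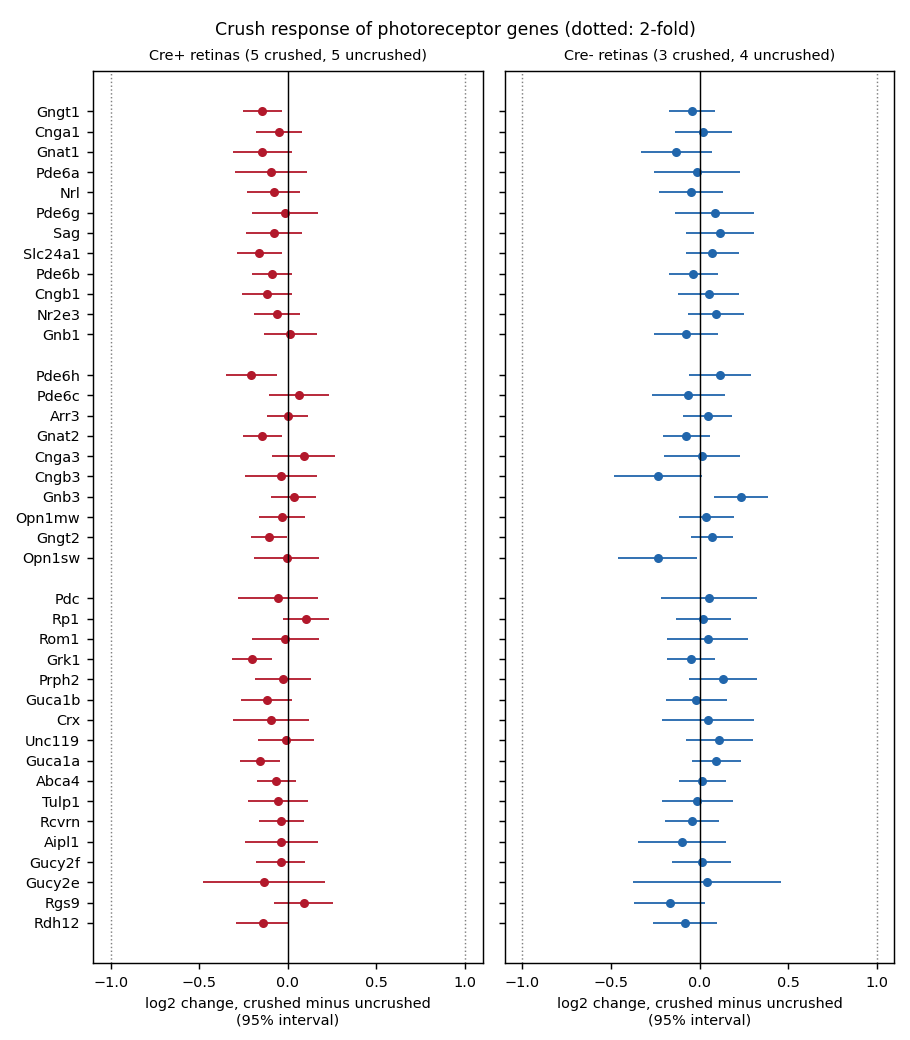
Crush response of each of the 39 genes as a log2 change with its 95% interval (x axis), in Cre-positive retinas (left) and Cre-negative retinas (right); dotted lines mark 2-fold. All intervals stay inside the dotted lines, and 33 of 39 estimates on the left lie below 0, against 18 of 39 under median scaling without loess. Of all tested probes 50.2% were above 0 in that comparison, against 61.3% under median scaling.

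Small shifts without any call were seen in Cre-positive retinas. After crush, 33 of the 39 genes had a change below 0 there, but 18 of 39 did when arrays were scaled by their median with no loess curve. The 33 were made up of 11 of 12 rod genes, 7 of 10 cone genes and 15 of 17 genes used by both, whereas 50.2% of all tested probes had a change above 0. The list medians were -0.09 for rod genes, -0.02 for cone genes and -0.06 for genes used by both, against 0.00049 over all tested probes. Without the cornea-rich and the lens-rich array they were -0.04, 0.00068 and -0.02. With 1 array left out at a time the rod median ran from -0.11, without Cre-positive uncrushed replicate 5, to -0.06, without Cre-positive uncrushed replicate 4. The cone median ran from -0.05, without Cre-positive crushed replicate 3, to 0.0012, without Cre-positive crushed replicate 4. The median of genes used by both ran from -0.07, without Cre-positive crushed replicate 3, to -0.02, without Cre-positive uncrushed replicate 1. Within the 4 slides that held both groups, the median change ran from -0.16 to -0.01 for rod genes, from -0.14 to -0.01 for cone genes and from -0.13 to 0.0064 for genes used by both. Without the cornea-rich and the lens-rich array 25 of 39 genes were below 0. Under median scaling 61.3% of all probes were above 0. With the Cy5 channel alone 31 of 39 genes were below 0, and 47.5% of all probes were above 0. The part of the other tissues' RNA, and of the gliosis and microglial genes that rose in the same retinas, in these small shifts was not tested.

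In Cre-negative retinas the same lists were centred near 0 after crush in the main fit. Of the 39 genes 17 had a change below 0, against 29 under median scaling without loess and 33 with the Cy5 channel alone. Of all tested probes 50.5% were above 0, against 39.6% under median scaling and 48.2% with Cy5 alone. The list medians were 0.0045 for rod genes, 0.03 for cone genes and 0.02 for genes used by both. Within the 3 slides that held both groups these medians ran from -0.03 to 0.02, from -0.06 to 0.07 and from -0.04 to 0.02. For the difference between the crush responses, Cre-positive minus Cre-negative, the list medians were -0.09, -0.06 and -0.08 in the order rod, cone and both. All 3 were above 0 under median scaling without loess, where the median over all tested probes was 0.076, with 66.1% above 0. For that difference 30 of 39 genes were below 0 in the main fit, against 21 with Cy5 alone. Between Cre-positive and Cre-negative retinas the list medians were 0.03, 0.07 and 0.05 without crush, and -0.05, 0.0075 and -0.02 with crush. Those without crush were all below 0 under median scaling, where the median over all tested probes was -0.043, with 35.9% above 0. Without the cornea-rich and the lens-rich array the medians were -0.05, -0.04 and -0.03 for the difference between the responses, 0.01, 0.05 and 0.04 for Cre without crush, and -0.04, 0.0086 and 0.0028 for Cre with crush. These comparisons share group means, so the Cre-positive uncrushed arrays enter both the crush response and the Cre comparison.

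**Figure D3:**
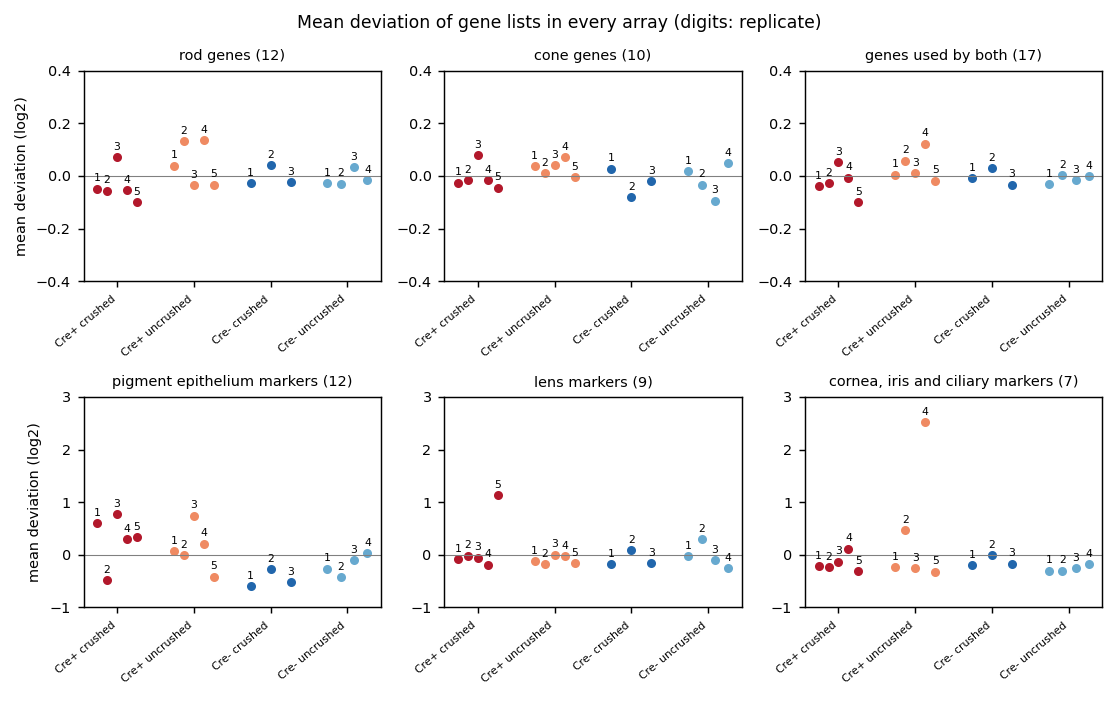
Mean deviation of each gene list from its mean over the 17 arrays (y axis, log2), 1 point per array with its replicate number, for the rod, cone and shared lists (top) and for pigment epithelium, lens and cornea markers (bottom, wider scale). The photoreceptor lists stay between -0.10 and 0.14 on every array, while cornea markers reach 2.52 on Cre-positive uncrushed replicate 4 and lens markers 1.14 on Cre-positive crushed replicate 5.

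The rod transducin gene Gnat1 had levels of 7.40, 7.44, 7.27, 7.43 and 7.26 in Cre-positive crushed retinas, against 7.33, 7.73, 7.33, 7.66 and 7.48 in Cre-positive uncrushed retinas. In Cre-negative mice its levels were 7.33, 7.40 and 7.32 in crushed retinas, against 7.51, 7.41, 7.65 and 7.35 in uncrushed retinas. The highest arrays of both uncrushed groups lay above all crushed arrays, but the ranges overlapped in each pair. The crush response was -0.15 (SE 0.08, adjusted p = 0.594) in Cre-positive and -0.13 (SE 0.10, adjusted p = 0.612) in Cre-negative retinas by limma. Without the cornea-rich and the lens-rich array the Cre-positive response was -0.08. By brightest probe Gnat1 was the rod gene furthest from 0 in the Cre-negative comparison, while other probes of Gnb1 and Cngb1 were at -0.20 and -0.15.

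The rod phosphodiesterase gene Pde6b had 5.34, 5.26, 5.35, 5.46 and 5.27 in Cre-positive crushed retinas, against 5.41, 5.39, 5.41, 5.56 and 5.36 in Cre-positive uncrushed retinas, with the highest value on the cornea-rich array. Its levels in Cre-negative mice were 5.33, 5.38 and 5.34 in crushed and 5.49, 5.42, 5.25 and 5.38 in uncrushed retinas. Groups overlapped in both pairs, and the crush responses were -0.09 (SE 0.05, adjusted p = 0.635) in Cre-positive and -0.03 (SE 0.07, adjusted p = 0.885) in Cre-negative retinas. For Pde6b the Cre-positive response was -0.04 without the cornea-rich and lens-rich arrays. For the inhibitory subunit gene Pde6g, levels were 6.26, 6.46, 6.51, 6.17 and 6.22 in Cre-positive crushed retinas, against 6.28, 6.73 and 6.29 in Cre-negative crushed retinas. Cre-negative crushed replicate 2 was the highest of these and the ranges overlapped. The Cre-positive minus Cre-negative difference in crushed retinas was -0.11 (SE 0.10, adjusted p = 0.671), the furthest from 0 among rod genes by brightest probe. Uncrushed retinas had 6.30, 6.40, 6.29, 6.34 and 6.37 in Cre-positive and 6.45, 6.24, 6.48 and 6.22 in Cre-negative mice.

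Rod arrestin, Sag, had 6.19, 6.15, 6.29, 6.22 and 6.28 in Cre-positive crushed retinas, against 6.18, 6.46, 6.15, 6.56 and 6.16 in Cre-positive uncrushed retinas. In Cre-negative mice the levels were 6.32, 6.12 and 6.33 in crushed and 6.13, 6.13, 6.10 and 6.20 in uncrushed retinas. Values overlapped in each pair, with replicates 2 and 4 of the Cre-positive uncrushed group standing above the rest. The crush responses were -0.08 (SE 0.07, adjusted p = 0.791) in Cre-positive and 0.12 (SE 0.09, adjusted p = 0.647) in Cre-negative retinas. Sag had a Cre-positive crush response of -0.03 without the cornea-rich and lens-rich arrays.

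The rod fate factor Nrl had 6.59, 6.64, 6.75, 6.53 and 6.55 in Cre-positive crushed retinas, against 6.79, 6.90, 6.53, 6.70 and 6.54 in Cre-positive uncrushed retinas. Crushed Cre-negative retinas had 6.70, 6.64 and 6.66, against 6.60, 6.65, 6.84 and 6.78 in uncrushed ones. All groups overlapped, and the changes after crush were -0.08 (SE 0.07, adjusted p = 0.764) in Cre-positive and -0.05 (SE 0.09, adjusted p = 0.87) in Cre-negative retinas. Nrl had a Cre-positive crush response of -0.06 without the cornea-rich and lens-rich arrays. Crx, the factor of both cell types, had 5.25, 5.35, 5.53, 5.56 and 5.16 in Cre-positive crushed retinas, against 5.22, 5.46, 5.57, 5.71 and 5.36 in Cre-positive uncrushed retinas. It had 5.44, 5.27 and 5.25 in Cre-negative crushed retinas, against 5.41, 5.45, 5.19 and 5.03 in Cre-negative uncrushed retinas. Crx groups overlapped as well, with crush responses of -0.10 (SE 0.10, adjusted p = 0.807) in Cre-positive and 0.05 (SE 0.12, adjusted p = 0.921) in Cre-negative retinas. Crx had a Cre-positive crush response of 0.02 without the cornea-rich and lens-rich arrays. Its Cre-positive minus Cre-negative difference in uncrushed retinas was 0.19 (SE 0.11, adjusted p = 0.903).

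The exchanger encoded by Slc24a1 removes calcium from the rod outer segment. Among brightest probes, Slc24a1 was the rod gene furthest from 0 in 3 comparisons. Its levels were 6.21, 6.16, 6.08, 6.22 and 6.11 in Cre-positive uncrushed retinas, against 5.93, 6.03, 5.91 and 5.93 in Cre-negative uncrushed retinas. These groups did not overlap, with all 5 Cre-positive arrays above all 4 Cre-negative ones. By brightest probe it was the only 1 of 39 genes apart in that direction. Of the 56 member probes 2 were, as were 1.22% of all probes. The Slc24a1 difference was 0.21 (SE 0.06, adjusted p = 0.894). By its brightest probe 0 of 39 genes stood apart in the other direction, lower in Cre-positive uncrushed retinas, as did 0.686% of all probes. In crushed retinas Slc24a1 had 5.84, 5.94, 6.18, 6.05 and 5.97 in Cre-positive mice, against 6.04, 5.93 and 6.09 in Cre-negative mice, and these overlapped. The crush response was -0.16 (SE 0.06, adjusted p = 0.37) in Cre-positive and 0.07 (SE 0.07, adjusted p = 0.743) in Cre-negative retinas, and their difference was -0.23 (SE 0.09, adjusted p = 0.506). Slc24a1 had a Cre-positive crush response of -0.14 without the cornea-rich and lens-rich arrays.

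**Figure D4:**
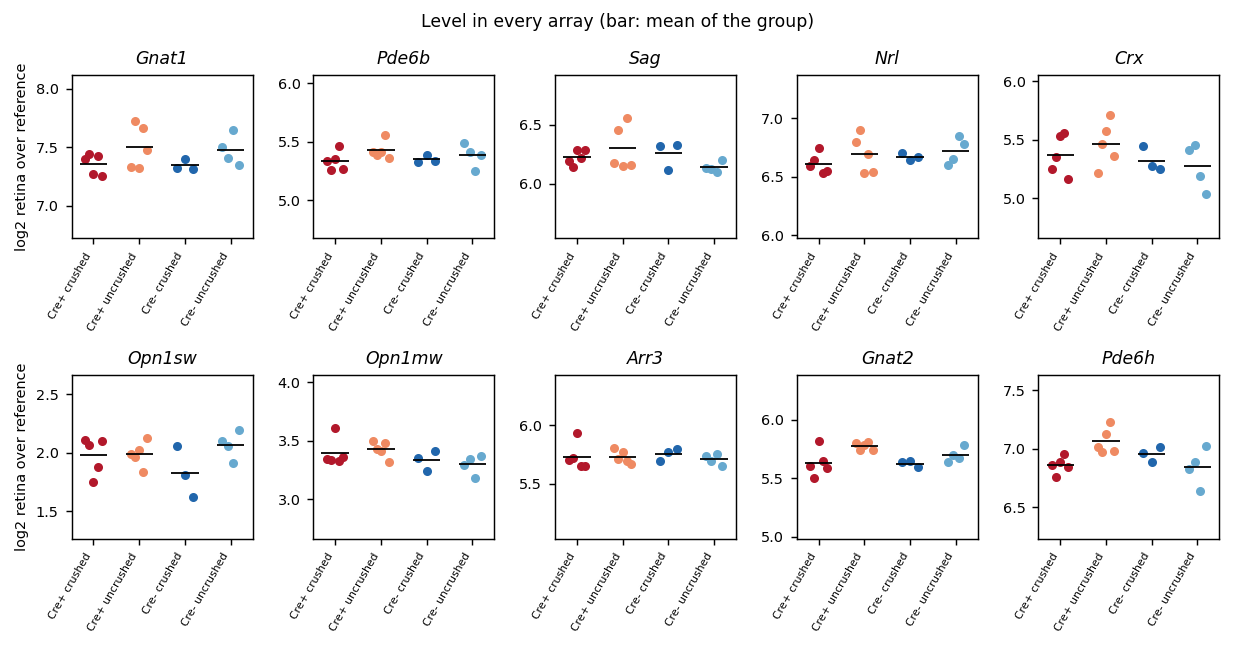
Level of 10 rod, cone and shared genes in every array (y axis, log2 of retina over reference, each panel spanning 1.4 units), by group (x axis), with a bar at the group mean. Points of the 4 groups overlap in nearly every panel, and Pde6h shows the Cre-positive uncrushed arrays above the Cre-positive crushed ones.

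The short-wavelength opsin gene Opn1sw had 2.11, 2.07, 1.75, 1.88 and 2.10 in Cre-positive crushed retinas, against 1.99, 1.96, 2.02, 1.84 and 2.13 in Cre-positive uncrushed retinas. Its levels were 2.06, 1.82 and 1.62 in Cre-negative crushed retinas, against 2.11, 2.06, 1.91 and 2.20 in Cre-negative uncrushed retinas. A single crushed Cre-negative array lay among the uncrushed ones and the other 2 lay below them. The crush response was -0.01 (SE 0.09, adjusted p = 0.986) in Cre-positive and -0.24 (SE 0.10, adjusted p = 0.336) in Cre-negative retinas, and the difference between them was 0.23 (SE 0.14, adjusted p = 0.692). Opn1sw had a Cre-positive crush response of -0.07 without the cornea-rich and lens-rich arrays. The reference signal of Opn1sw was not well above background on some arrays of every group, which limits its changes. The medium-wavelength opsin gene Opn1mw had 3.34, 3.33, 3.61, 3.33 and 3.36 in Cre-positive crushed retinas, against 3.50, 3.43, 3.41, 3.48 and 3.32 in Cre-positive uncrushed retinas. Cre-negative mice had 3.35, 3.24 and 3.41 in crushed and 3.29, 3.34, 3.18 and 3.37 in uncrushed retinas. By this probe, the brightest, groups overlapped throughout. Its crush responses were -0.03 (SE 0.06, adjusted p = 0.902) in Cre-positive and 0.04 (SE 0.07, adjusted p = 0.891) in Cre-negative retinas. Opn1mw had a Cre-positive crush response of -0.01 without the cornea-rich and lens-rich arrays. The other Opn1mw probe changed by -0.17 after crush in Cre-positive and -0.03 in Cre-negative retinas. Between crushed retinas of the 2 genotypes it differed by -0.20, against 0.06 for the brightest. Without crush it ran from 3.73 to 3.78 in Cre-positive and from 3.79 to 3.90 in Cre-negative mice, without overlap. Of the 56 member probes 2 were lower without overlap there, as were 0.686% of all probes.

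Cone arrestin, Arr3, had 5.70, 5.72, 5.93, 5.65 and 5.65 in Cre-positive crushed retinas, against 5.81, 5.71, 5.77, 5.70 and 5.66 in Cre-positive uncrushed retinas. In Cre-negative mice it had 5.69, 5.77 and 5.80 in crushed and 5.74, 5.69, 5.75 and 5.65 in uncrushed retinas. Both pairs overlapped, and the crush responses were -0.00 (SE 0.05, adjusted p = 0.999) in Cre-positive and 0.05 (SE 0.07, adjusted p = 0.835) in Cre-negative retinas. Arr3 had a Cre-positive crush response of 0.01 without the cornea-rich and lens-rich arrays. The cone transducin gene Gnat2 had 5.61, 5.50, 5.82, 5.65 and 5.58 in Cre-positive crushed retinas, against 5.80, 5.75, 5.78, 5.81 and 5.74 in Cre-positive uncrushed retinas. Its Cre-negative levels were 5.64, 5.65 and 5.59 in crushed and 5.64, 5.70, 5.67 and 5.79 in uncrushed retinas. Cre-positive crushed replicate 3 lay above every uncrushed array of its genotype while the other 4 lay below them, and the responses were -0.15 (SE 0.05, adjusted p = 0.354) in Cre-positive and -0.08 (SE 0.06, adjusted p = 0.68) in Cre-negative retinas. Gnat2 had a Cre-positive crush response of -0.13 without the cornea-rich and lens-rich arrays.

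The inhibitory subunit gene of cone phosphodiesterase, Pde6h, was the cone gene furthest from 0 in 3 comparisons. It had 6.86, 6.76, 6.89, 6.95 and 6.85 in Cre-positive crushed retinas, against 7.01, 6.98, 7.13, 7.23 and 6.99 in Cre-positive uncrushed retinas. Cre-negative mice had 6.97, 6.89 and 7.02 in crushed and 6.83, 6.89, 6.64 and 7.03 in uncrushed retinas. The Cre-positive groups did not overlap, with every crushed array below every uncrushed one, while the Cre-negative groups overlapped. The crush response was -0.21 (SE 0.07, adjusted p = 0.277) in Cre-positive and 0.11 (SE 0.08, adjusted p = 0.614) in Cre-negative retinas. Pde6h had a Cre-positive crush response of -0.16 without the cornea-rich and lens-rich arrays. The difference between these responses was -0.32 (SE 0.11, adjusted p = 0.379) with a 95% interval of -0.55 to -0.09, and the second Pde6h probe gave -0.34 (SE 0.08) with limma adjusted p = 0.0945. In uncrushed retinas the Cre-positive minus Cre-negative difference was 0.22 (SE 0.07, adjusted p = 0.894). The catalytic subunit gene Pde6c had 6.29, 6.43, 6.66, 6.57 and 6.27 in Cre-positive crushed retinas, against 6.23, 6.22 and 6.29 in Cre-negative crushed retinas. These ranges overlapped, and the difference was 0.20 (SE 0.09, adjusted p = 0.356), the furthest from 0 among cone genes by brightest probe in that comparison. Uncrushed retinas had 6.28, 6.19, 6.49, 6.47 and 6.48 in Cre-positive and 6.41, 6.29, 6.37 and 6.17 in Cre-negative mice.

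In 4 genes the brightest probe had no overlap between crushed and uncrushed arrays in Cre-positive retinas. All 4 were lower after crush, with 5 of 56 member probes apart in that direction, as were 0.581% of all probes. In the other direction 0 genes were apart, as were 1.47% of all probes. The 4 genes were Pde6h, the cone transducin subunit gene Gngt2 (change -0.11), Grk1 and Guca1a (change -0.16). Grk1, the opsin kinase gene, had 6.47, 6.39, 6.36, 6.50 and 6.27 in Cre-positive crushed retinas, against 6.64, 6.67, 6.52, 6.62 and 6.54 in Cre-positive uncrushed retinas. Its Cre-negative levels were 6.36, 6.40 and 6.53 in crushed and 6.53, 6.45, 6.50 and 6.45 in uncrushed retinas, which overlapped. The Grk1 response was -0.20 (SE 0.05, adjusted p = 0.107) in Cre-positive and -0.05 (SE 0.06, adjusted p = 0.816) in Cre-negative retinas, and its other probe gave 0.08 in Cre-positive retinas. Grk1 had a Cre-positive crush response of -0.16 without the cornea-rich and lens-rich arrays. The groups of Guca1a also stood apart between Cre-positive and Cre-negative crushed retinas, with a difference of -0.20 (SE 0.06, adjusted p = 0.157). By brightest probe it was the only gene lower without overlap there. Of all 56 member probes 2 were, as were 4.37% of all probes.

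In Cre-negative retinas 1 gene was higher after crush without overlap by its brightest probe, as were 8.68% of all probes. By the same measure 1 gene was lower, as were 6.58% of all probes. The higher one was Gnb3, with a change of 0.24 (SE 0.07, adjusted p = 0.122). With array weights it was called, at 0.27 (SE 0.06, limma adjusted p = 0.0168). The lower one was Rgs9, which had 1.33, 1.43 and 1.43 in Cre-negative crushed retinas, against 1.58, 1.52, 1.62 and 1.54 in Cre-negative uncrushed retinas. In Cre-positive mice Rgs9 had 1.62, 1.54, 1.90, 1.63 and 1.75 in crushed and 1.61, 1.48, 1.88, 1.41 and 1.60 in uncrushed retinas. Every Cre-positive crushed array lay above every Cre-negative crushed one, the only such gene by its brightest probe, as did 5.82% of all probes. The other Rgs9 probes disagreed in that comparison, at 0.37 (SE 0.12) and -0.19 (SE 0.14). Its change after crush was 0.09 (SE 0.08, adjusted p = 0.769) in Cre-positive and -0.17 (SE 0.10, adjusted p = 0.487) in Cre-negative retinas, the difference between these was 0.26 (SE 0.12, adjusted p = 0.607), and the Cre-positive minus Cre-negative difference in crushed retinas was 0.29 (SE 0.09, adjusted p = 0.151). Gucy2e, the gene with the widest spread, had 1.40, 1.99, 1.15, 1.61 and 1.33 in Cre-positive crushed retinas, against 1.63, 2.40 and 1.52 in Cre-negative crushed retinas. These overlapped, and the difference was -0.35 (SE 0.19, adjusted p = 0.427). Uncrushed levels were 1.44, 1.40, 1.76, 1.65 and 1.91 in Cre-positive and 2.02, 1.69, 1.83 and 1.70 in Cre-negative mice. The reference signal of Gucy2e was not well above background on some arrays of every group.

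Probes of the same gene could differ in level and in change. Of the 39 genes 25 had 1 probe, 11 had 2 and 3 had 3. The second probe of Gnb1 changed by -0.29 after crush in Cre-positive retinas, against 0.01 for its brightest probe. In Cre-negative retinas these changes were -0.20 and -0.08. The second probe of Rp1 had Cy3 not well above background on any array of 3 groups, so its changes rest on a dim reference signal. They were 0.36 after crush in Cre-negative retinas and -0.42 for the difference between the responses, called in neither. Cngb3 and Gucy2f have this limit on every array, and their changes are counted among the 39 genes.

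Of 37 further photoreceptor genes, among them genes of the interphotoreceptor matrix, the connecting cilium and the synapse, 37 were tested and 0 were called by limma in any of the 5 comparisons. At an unadjusted p under 0.05 there were 3 after crush in Cre-positive retinas (9.37% of all probes), 4 after crush in Cre-negative retinas (13.2%), 4 for the difference between the responses (8.33%), 3 between uncrushed retinas (5.42%) and 5 between crushed retinas of the 2 genotypes (13.8%). Their median change was 0.01 after crush in Cre-positive and -0.0073 in Cre-negative retinas. Of these 37, 16 had a change below 0 after crush in Cre-positive retinas. Bipolar cell markers, which belong to the neurons that receive photoreceptor input, had 0 of 9 called by limma in each comparison and 0 of 9 at an unadjusted p under 0.05 after crush in either genotype.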

How the data were processed

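The deposited scanner files, 1 per array, hold median spot and background intensity values in both dyes without normalization, per the file headers from Agilent Feature Extraction 10.7.3.1 at 5 micron per pixel. The authors also deposited a table of log2 ratios of Cy5 over Cy3 for the same arrays. Its scale is not stated and was read from its r of 0.999 to 1.00 and slope of 1.00 to 1.02 against the ratios computed here, and the median of a column was 0.015 to 0.0237. With every probe centred on its own mean, r was 0.951 to 1.00. Per the submitters' processing notes limma was used.

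Intensities were corrected with limma 3.58.1 in R 4.3.3 (normexp, offset 50), normalized by loess within arrays with control spots at weight 0, and averaged over the spots of a probe. Dim spots have their ratios drawn closer to 0 by this offset. Outlier-flagged spots were left out, which gave 56 missing values among tested probes and 0 among member probes. Probes with Cy5 well above background on at least 3 of 17 arrays were tested, 30484 in all. Of 39429 probes 26581 carried 1 symbol through their accession. A gene is given by its probe with the highest mean Cy5 intensity, and all its probes were tested.

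The 17 arrays were fitted with 4 group means (13 residual and 4.60 prior degrees of freedom) and 5 two-sided contrasts, adjusted by Benjamini-Hochberg over all tested probes. 1 array with contradictory crush labels was left out. Each of the 5 slides held several arrays and more than 1 group. Values in every array are given for 10 genes named by role and for the member of each list furthest from 0 by brightest probe in each contrast. Gnb3, Guca1a, Gngt2 and Pdc are named outside that rule, after their values were seen. The members, lists and tests were chosen with earlier results of these data known. The fit was tested on simulated data. The alternatives were other background corrections and scalings, the authors' table, other filters, 1 probe per gene, slide as a block, array weights, the contradictory array in either group and each array left out in turn. A scaling without loess, and a fit without the cornea-rich and lens-rich arrays, were added after seeing the data.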

Additional observations from a re-analysis of the deposited data

Results flagged for a closer look

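Among 57 sets of values from 1 group, covering the 16 genes given array by array and the 3 list means, 4 had 1 array far from the rest by Dixon's criterion at the 95% level. Chance gives about 1 in 20. The Cre-negative crushed group, with 3 arrays, was too small for this criterion and was not screened. Pde6b was 5.56 on Cre-positive uncrushed replicate 4, the array rich in cornea markers, while the other 4 arrays of the group lay at 5.36 to 5.41. Cre-positive crushed replicate 3 accounted for the other 3 sets. On that array Opn1mw was 3.61, with 3.33 to 3.36 on the other 4, and Arr3 was 5.93, with 5.65 to 5.72 on the others. Its mean deviation over the 10 cone genes was 0.080, with -0.044 to -0.015 on the others, and its rod genes and genes used by both deviated by 0.07 and 0.05. Its further photoreceptor genes deviated by 0.12, with -0.038 to 0.0079 on the others, and its bipolar cell markers by 0.093, with -0.020 to 0.015. Its lens and cornea markers deviated by -0.05 and -0.13. Its pigment epithelium markers deviated by 0.77, with -0.48 to 0.60 on the others.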

How the results depend on the processing

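Under 32 alternatives per comparison 0 of 56 member probes were called, except that with array weights 1 was called after crush in Cre-negative retinas, Gnb3 (0.27, SE 0.06, limma adjusted p = 0.0168). The genes given array by array stayed on their side of the threshold in all 32. Of these, 1 scaled only the average intensity of the 2 dyes, which leaves the ratios unchanged, so it could not differ. Under median scaling without loess the median over all tested probes moved too. It was 0.028 after crush in Cre-positive and -0.035 after crush in Cre-negative retinas. For the difference between the responses it was 0.076, and for Cre -0.043 in uncrushed and 0.026 in crushed retinas. The 5 comparisons had 0.00049 to 0.0085 in the main fit and -0.0077 to 0.0052 with Cy5 alone. List medians moved by more than the spread between arrays as follows, and the cause was not tested. After crush in Cre-positive retinas, median scaling without loess gave -0.0038 for rod genes and 0.0074 for genes used by both, and the Cy5 channel alone gave -0.10 for cone genes. After crush in Cre-negative retinas, median scaling gave -0.072, -0.058 and -0.063 for rod genes, cone genes and genes used by both. Cy5 alone gave -0.086 for cone genes and -0.063 for genes used by both, processed signals gave 0.096 and 0.063 for the same lists, and the array with contradictory labels taken as crushed gave -0.051 for genes used by both. For the difference between the responses, median scaling gave 0.057, 0.080 and 0.061, Cy5 alone -0.0056, 0.016 and -0.0021, processed signals -0.14 for cone genes and -0.15 for genes used by both, the contradictory array as crushed -0.0015 for cone genes, and the fit without the cornea-rich and lens-rich arrays -0.030 for genes used by both. For Cre in uncrushed retinas, median scaling gave -0.056, -0.031 and -0.038, Cy5 alone -0.015 for cone genes and -0.0022 for genes used by both, and the contradictory array as uncrushed 0.10 for genes used by both. For Cre in crushed retinas, Cy5 alone gave 0.046 for rod and -0.085 for cone genes, median scaling 0.036 and processed signals -0.075 for genes used by both, and the contradictory array as crushed 0.031 for rod genes and 0.033 for genes used by both. Leaving out 1 array at a time, the median of genes used by both ranged over -0.10 to -0.031 for the difference between the responses, with Cre-negative crushed replicate 2 left out at the end nearest 0, and the cone median over -0.044 to 0.035 for Cre in crushed retinas, with Cre-positive crushed replicate 3 left out at the lower end. Levels in Cre-negative uncrushed retinas had list medians of 6.35, 5.01 and 4.85 with processed signals for rod genes, cone genes and genes used by both, and the cone median was 3.84 with no background subtraction. Counts over all tested probes, which serve as background, moved more. After crush in Cre-negative retinas they were 1363 with array weights and 88 with the contradictory array as uncrushed, against 602. After crush in Cre-positive retinas they were 12 with that array as uncrushed and 133 without the cornea-rich and lens-rich arrays, against 224. For the difference they were 165 with array weights, 70 with processed signals and 0 with that array as uncrushed, against 109. For Cre in crushed retinas they were 611, 162 with slide as a fixed block and 138 with that array as uncrushed, against 340. Leaving out an array gave 363 at the lowest after crush in Cre-negative retinas, 130 after crush in Cre-positive retinas and 186 for Cre in crushed retinas. No paired analysis was possible because the labels give the arrays no shared replicate numbers. The slides that arrays share served as a fixed and as a random block instead, and 0 of 56 member probes were called with either. The number of arrays limits precision, and the Cy3 signal of Cngb3 and Gucy2f, not well above background on any array, limits their levels to bounds.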

Other observations

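For 1 Cre-negative array the title gives an uncrushed retina and the description a crushed one, so it entered no comparison. Its mean deviation from the 17 arrays was -0.22 over the 12 rod genes, -0.13 over the 10 cone genes and -0.18 over the 17 genes used by both. All 3 values lie below those of every other array. So do its values of -0.15 over the further photoreceptor genes and -0.26 over the bipolar cell markers, so the low position is not particular to the 39 genes. The same array deviated by 0.85 over the lens markers, -0.30 over the cornea markers, -0.71 over the ganglion cell markers and 0.61 over the reactive gliosis genes.

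Among the 37 further photoreceptor genes, the smallest unadjusted p in any comparison belonged to Thrb, the thyroid hormone receptor gene that controls cone opsin choice, chosen for naming after its value was seen. Its Cre-positive minus Cre-negative difference in crushed retinas was 0.18 (SE 0.06, limma adjusted p = 0.153). Impg2, a gene of the matrix around photoreceptors, had a difference of 0.38 (SE 0.13, limma adjusted p = 0.271) after crush in Cre-positive retinas and was likewise chosen after its value was seen.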
